A study of Mus musculus with 42 samples.

Results

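The Maf family transcription factors are 4 of the 21884 protein-coding genes that were measured here: the large member Maf (c-Maf) and the small members Maff, Mafg and Mafk. They were taken by gene symbol from the mouse annotation of GRCm38 (mm10), the build of the deposited files, and all 4 gave values. Maf (ENSMUSG00000055435) lies on the minus strand at chr8:115682942-115707794, Maff (ENSMUSG00000042622) on the plus strand at chr15:79346621-79359076, Mafg (ENSMUSG00000051510) on the minus strand at chr11:120625117-120633600 and Mafk (ENSMUSG00000018143) on the plus strand at chr5:139791513-139802653.

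Maf proteins are basic leucine zipper factors that bind DNA as dimers. The large Maf proteins carry an activating domain of their own, and c-Maf is known in macrophages as an activator of Il10. The small Maf proteins lack such a domain. They act as the obligate partners of the cap'n'collar factors (Nfe2 and its relatives, among them Nrf2, encoded by Nfe2l2) and of the repressors Bach1 and Bach2 at antioxidant response elements, and as dimers of small Maf proteins alone they repress.

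The study asked how the nuclear receptor Nur77 (Nr4a1) shapes the response of macrophages to lipopolysaccharide (LPS), the cell wall component of Gram-negative bacteria that activates Toll-like receptor 4. Bone marrow-derived macrophages (BMDM) were grown for 7 days in L929-conditioned medium from male C57Bl6/J mice, 6 to 12 weeks old, that were either wild type (WT) or lacked Nur77 in the whole body (KO). Cells of each genotype were left untreated (0 h) or received 100 ng/ml LPS for 1 h or 18 h. Chromatin immunoprecipitation with sequencing was done for RNA polymerase II (Pol II) and for acetylated lysine 27 of histone H3 (H3K27ac, which marks promoters and enhancers in use), with 3 libraries per genotype, time and antibody and 1 input library per genotype and time. The KO line was made by crossing a mouse with Cre driven by the human cytomegalovirus promoter to one with loxP sites around Nr4a1 and then breeding out Cre, while the labels write the KO genotype as "cre". Nothing in the labels says that the 3 libraries of a group came from separate mice, so the p-values measure only the spread between these libraries.

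The libraries held 21.7 to 36.1 M tags for Pol II, 13.5 to 55.4 M for H3K27ac and 25.6 to 45.3 M for inputs, and the H3K27ac libraries were deeper in KO (23.6 to 55.4 M) than in WT (13.5 to 31.1 M). Pol II over Nr4a1 was 189, 188 and 208 normalized tags in WT at 0 h and 87.8, 76.1 and 70.2 in KO. This difference passed the test (log2 change -1.22, limma with Benjamini-Hochberg adjustment, adjusted p = 0.00012). At 18 h KO was listed at 0 in every library, which gives no test, and at 1 h KO held 33.5, 39.0 and 36.6 against 25.5, 23.0 and 30.4 in WT (adjusted p = 0.089). The window holds the whole gene, including what a deletion may leave, so it is a partial check of the labels. Macrophage marker genes were found in every Pol II library (7 of 7; summed level 709 to 1452 tags per kb), while 3 of 4 lymphocyte markers (among them Cd3e and Ncr1) and 2 of 3 fibroblast markers (Col1a1 and Col3a1) were listed at 0. The lymphocyte list summed to 5.82 to 19.9 tags per kb over groups and the fibroblast list to 0 to 1.48. Of 5 neutrophil markers 4 or 5 were at 0 in each group, and the one seen, S100a8, was called higher in KO at 0 h (1.02). At 1 h S100a8 was listed at 0 in every WT library and entered the comparison only through KO. Its fitted value there (1.15) is no test of a measured difference. Replicate Pol II libraries correlated at 0.985 to 0.993 over genes. The H3K27ac libraries did so at 0.986 to 0.994, except the libraries labelled KO replicate 1 at 1 h (0.912 and 0.913 with its replicates) and KO replicate 1 at 18 h (0.914 and 0.915). The library labelled KO replicate 1 at 1 h correlated at 0.983 with the WT mean at 1 h and at 0.915 with the mean of its own group. KO replicates 2 and 3 at 1 h correlated at 0.908 and 0.909 with that WT mean. Against the WT mean of the same time, KO libraries stood at 0.986 to 0.987 at 0 h. At 18 h replicates 2 and 3 stood at 0.984 and 0.9835 and replicate 1 at 0.912. Which KO libraries at 1 h are the unusual ones therefore cannot be told. Called H3K27ac changes in KO at 1 h or 18 h against 0 h, and H3K27ac differences between genotypes, are also given without 2 libraries. These are the ones labelled KO replicate 1 at 1 h and at 18 h.

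All values are the normalized tags of the deposited regions that fall over a window, scaled by the authors to 10 M tags per library. For Pol II the window is the gene with 500 bp on each side, and for H3K27ac it is 2500 bp on each side of the start of the gene. A change is called when its adjusted p is below 0.05 over all genes tested, and log2 changes are on the scale of log2(normalized tags + 10), which understates changes of low values. One feature of the Pol II data touches every comparison with 1 h: over 10639 genes the median Pol II value moved by -0.80 (log2) in WT and by -0.55 in KO at 1 h, and by 0.07 and -0.07 at 18 h, relative to WT at 0 h. Each Pol II change is therefore also given relative to that median, as the centred change. For H3K27ac the same medians lay between -0.02 and 0.07.

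The upstream sequences of the starts are shown because Pol II and H3K27ac at these starts carry the results. The RefSeq promoter table (GRCm38.p6) held 5 starts for 3 of the 4 members, Maff, Mafg and Mafk. The 250 bases before each start follow, 5′ to 3′ on the strand of the gene. Capitals mark matches on either strand to TGACG (the short CRE), which is also contained in the full CRE TGACGTCA, to the E-box CACGTG and to TGACNNNGC, the core of the antioxidant response element.
Maff start 79346621 (chr15:79346371-79346620, plus strand): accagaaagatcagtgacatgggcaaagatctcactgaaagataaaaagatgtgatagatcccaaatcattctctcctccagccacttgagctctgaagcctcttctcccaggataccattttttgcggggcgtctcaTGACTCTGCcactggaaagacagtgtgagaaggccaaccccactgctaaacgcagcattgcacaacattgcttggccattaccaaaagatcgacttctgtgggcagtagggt
Maff start 79347520 (chr15:79347270-79347519, plus strand): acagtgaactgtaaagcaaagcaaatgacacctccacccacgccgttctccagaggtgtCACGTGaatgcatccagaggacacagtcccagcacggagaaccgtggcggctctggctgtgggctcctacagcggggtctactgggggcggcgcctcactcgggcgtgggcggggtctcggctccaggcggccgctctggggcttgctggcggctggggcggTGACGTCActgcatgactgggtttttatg
Maff start 79348402 (chr15:79348152-79348401, plus strand): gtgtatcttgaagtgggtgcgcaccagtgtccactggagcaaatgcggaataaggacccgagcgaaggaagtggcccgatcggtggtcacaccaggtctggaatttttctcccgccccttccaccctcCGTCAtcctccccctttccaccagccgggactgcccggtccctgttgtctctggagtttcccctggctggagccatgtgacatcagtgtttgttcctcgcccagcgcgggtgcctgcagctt
Mafg start 120633547 (chr11:120633548-120633797, minus strand): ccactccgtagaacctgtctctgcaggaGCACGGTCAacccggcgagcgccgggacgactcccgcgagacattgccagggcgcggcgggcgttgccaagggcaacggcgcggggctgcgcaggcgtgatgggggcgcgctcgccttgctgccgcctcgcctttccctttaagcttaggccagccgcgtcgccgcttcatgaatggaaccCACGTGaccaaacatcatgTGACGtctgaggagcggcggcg
Mafk start 139791536 (chr5:139791286-139791535, plus strand): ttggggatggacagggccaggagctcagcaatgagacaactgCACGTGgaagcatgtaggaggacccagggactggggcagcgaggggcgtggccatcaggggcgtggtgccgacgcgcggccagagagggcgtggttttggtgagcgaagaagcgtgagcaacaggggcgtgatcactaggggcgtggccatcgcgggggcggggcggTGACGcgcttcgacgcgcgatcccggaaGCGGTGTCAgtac

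The short CRE is found before 4 of the 5 starts and lies near the start at Maff 79347520 (full CRE, 29 to 22 bases before it), Mafg (22 to 18) and Mafk (41 to 37). A TGACG is held by 17.8% of the 32851 promoters of the table, and the full CRE by 1.55%. The E-box stands before 1 start of each small Maf gene and in 6.02% of all promoters. The antioxidant element core, the kind of site that small Maf dimers bind, stands before the first Maff start (TGACTCTGC, 112 to 104 bases before it), the Mafg start (GCACGGTCA, 222 to 214) and the Mafk start (GCGGTGTCA, 13 to 5), and in 10.2% of all promoters. The Maf recognition core TGCTGA (16.1% of promoters) was matched before Mafk only, and a match to the NF-kB motif (3.90%) only at the third Maff start, 70 to 61 bases before it. The search also covered the GC box GGGCGG (32.7% of promoters), of which the Maff 79347520 and Mafk sequences hold 3 and 2 and the third Maff start 1, and 4 motifs with no match before these starts, which were AP-1 TGANTCA (6.75%), the NBRE AAAGGTCA to which Nur77 binds as a monomer (1.34%), the CArG box (1.47%) and TATAAA (12.4%). GC content was 48% before the first Maff start and 60.4% to 68% before the others, against a median of 52.4% over all promoters.

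Pol II over the Maf family moved in different directions with LPS. At 1 h Maff rose and Maf fell in both genotypes, Mafk rose by less, and Mafg fell in tags but rose against the median gene. At 18 h Maff, Mafg and Mafk were above their untreated level and Maf below it. Per kb of window, the order in WT was Maf (99.7 ± 7.26 tags per kb, SD, n = 3), Mafg (57.6 ± 4.97), Mafk (20.4 ± 3.05) and Maff (13.2 ± 0.545) at 0 h, with each neighbour apart by more than its SD. At 1 h it was Mafg (44.1 ± 4.36), Maff (42.6 ± 0.853), Maf (32.5 ± 2.09) and Mafk (26.7 ± 1.32), of which Mafg and Maff were not apart beyond their spread. After 18 h the order was Mafg (95.1 ± 1.2), Maf (70.1 ± 6.98), Mafk (46.1 ± 1.72) and Maff (19.7 ± 0.603). In KO the order was the same at 0 h and 18 h and at 1 h Maff (60.5 ± 1.28) stood above Mafg (47.5 ± 1.68), Maf (29.4 ± 0.812) and Mafk (28.2 ± 2.72), the last pair within their spread.

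**Figure D1:**
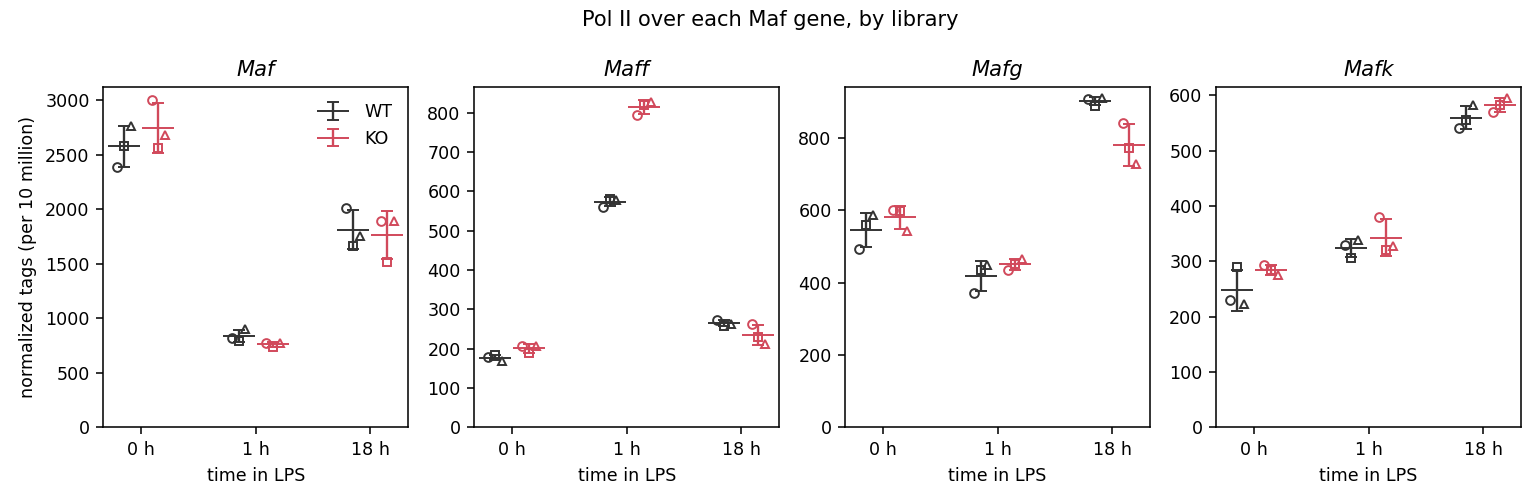
Normalized Pol II tags over each Maf family gene with 500 bp on each side, by genotype and hours of LPS; each library is a point (circle, square and triangle for replicates 1, 2 and 3), the line is the mean of 3 libraries and the bars are the SD. Maff is highest at 1 h and Maf lowest at 1 h in both genotypes, whereas Mafg and Mafk are highest at 18 h.

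Against untreated cells at 1 h, 2 of the 4 members were called higher (Maff, Mafk) and 2 lower (Maf, Mafg) in each genotype. Of all genes tested, 18.6% were called higher and 68.5% lower in WT, and 20.6% and 62.2% in KO. At 18 h against 0 h, 3 members were called higher and Maf lower in each genotype (33.3% higher and 33.3% lower in WT, 28.1% and 42.2% in KO over all genes). From 1 h to 18 h, 3 were called higher and Maff lower in each genotype (66.6% and 18.8% in WT, 55.2% and 24.2% in KO). Centring moved the split of all calls in the comparisons with 1 h: from 2457 higher and 9057 lower to 4914 and 5048 for 1 h against 0 h in WT, from 2735 and 8247 to 4817 and 5084 in KO, from 8587 and 2431 to 4645 and 5292 for 18 h against 1 h in WT, and from 7145 and 3134 to 4815 and 5117 in KO. Centred, the members were called 3 higher and 1 lower at 1 h and at 18 h against 0 h in both genotypes, and from 1 h to 18 h 2 higher and 1 lower in WT and 3 higher and 1 lower in KO.

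Maf, the large member, lost Pol II at 1 h and regained part of it by 18 h. In WT it held 2388, 2582 and 2763 normalized tags without LPS, 823, 795 and 899 after 1 h and 2015, 1667 and 1757 after 18 h. In KO it held 3007, 2559.8 and 2678 without LPS, 769, 737 and 776 after 1 h and 1895, 1514 and 1893 after 18 h. The libraries of the 3 times did not overlap in either genotype. At 1 h Pol II was 0.328 of the untreated level in WT (log2 change -1.61 ± 0.09, SE, adjusted p = 2.9e-11, centred -0.81) and 0.28 of it in KO (-1.84, adjusted p = 5.3e-12, centred -1.26). After 18 h it stood at 0.704 of it in WT (-0.51, adjusted p = 0.00013, centred -0.58) and 0.642 in KO (-0.64, adjusted p = 9.6e-06, centred -0.55). From 1 h to 18 h it rose by 1.10 in WT (centred 0.23, adjusted p = 0.039) and by 1.2 in KO (centred 0.72). Over 500 bp on each side of the start this rise was 0.32 (adjusted p = 0.08) in WT and 0.33 (adjusted p = 0.083) in KO, neither called, and the change at 18 h against 0 h in WT was -0.37 (adjusted p = 0.067).

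At 1 h the listed regions also covered less of Maf. A region is listed only above a threshold, so this extent is not a measurement separate from the level. A reach of 0 kb means that no listed region lay over the gene end. Regions covered a mean of 100% of the window in untreated WT cells and 59.6% at 1 h, and 97.0% and 55.4% in KO, returning to 99.1% and 97.6% at 18 h. Past the end of the gene, Pol II reached 7.97 to 9.84 kb in WT at 0 h, 0 kb in every library at 1 h and 7.81 to 8.94 kb at 18 h. In KO it reached 4.98 to 8.41 kb, 0 kb and 7.49 to 8.59 kb. No other protein-coding gene shares these regions, the nearest, Wwox, lying 330.234 kb away. The antisense gene Gm15655 overlaps 8.34% of the window, and its reads cannot be told apart from those of Maf.

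Maff, a small Maf gene, was the member with the largest rise at 1 h in both genotypes. It held 179.9, 183 and 169 tags in WT without LPS, 561, 582 and 579 after 1 h and 274, 258 and 261 after 18 h. KO libraries held 207, 188 and 207 without LPS, 795, 819.7 and 828 after 1 h and 264, 229.7 and 213 after 18 h. All 6 libraries at 1 h stood above all 12 others, and the KO libraries at 1 h stood above those of WT. The rise at 1 h was 3.11-fold in WT (log2 change 1.64 ± 0.08, adjusted p = 1.8e-12, centred 2.44) and 3.91-fold in KO (1.97, adjusted p = 1.5e-13, centred 2.54). After 18 h it remained 1.46-fold above untreated cells in WT (0.55, adjusted p = 7.6e-06, centred 0.48) and 1.16-fold in KO (0.22, adjusted p = 0.021, centred 0.31). The KO call at 18 h was lost without KO replicate 2 at 0 h (0.17, adjusted p = 0.087) or KO replicate 1 at 18 h (0.13, adjusted p = 0.14), and turned to -0.23 (adjusted p = 0.35) over 500 bp on each side of the first start, where the WT call was lost too (0.20, adjusted p = 0.44). No Pol II region lay over that start (79346621) at 0 h or 18 h. The window leaves out the starts at 79347520 and 79348402, so it does not measure Pol II there. From 1 h to 18 h Maff fell by 1.09 in WT (centred -1.96) and by 1.75 in KO (centred -2.23).

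Coverage of Maff widened with the level. Regions covered 54.9% of the window in WT at 0 h, 97.7% at 1 h and 63.9% at 18 h, and 54.4%, 99.3% and 64.9% in KO. The first of the 3 Maff starts, at 79346621, whose upstream sequence holds the antioxidant element core, lay under a Pol II region in 2 of 3 WT and 3 of 3 KO libraries at 1 h and in none of the 12 libraries at 0 h and 18 h. The starts at 79347520 and 79348402 lay under one in all 18. Past the gene end, Pol II reached 2.66 to 4.11 kb in WT at 0 h, 7.48 to 8.38 kb at 1 h and 3.54 to 5.02 kb at 18 h, and in KO 1.39 to 3.09 kb, 6.97 to 8.45 kb and 8.06 to 13.5 kb. Tmem184b, on the other strand, ends 1.61 kb past the end of Maff, so Pol II past the end cannot be told apart from Pol II on that gene.

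Mafg fell in tags at 1 h and rose at 18 h. In WT it held 495, 559 and 587 tags without LPS, 371, 435 and 448 after 1 h and 907, 889 and 910.2 after 18 h, and in KO 601, 598 and 544, then 435, 451 and 467, then 842, 773 and 727. The libraries of the 3 times did not overlap in either genotype. The change at 1 h was -0.38 ± 0.08 in WT (0.768 of untreated, adjusted p = 0.0004) and -0.36 in KO (0.781, adjusted p = 0.00078), and its direction depends on the scaling, since the centred changes were 0.42 (adjusted p = 7.8e-05) and 0.22 (adjusted p = 0.016). By quantile normalization they were -0.13 (adjusted p = 0.14, not called) and -0.23 (adjusted p = 0.016). Thus Mafg lost less Pol II than the median gene at 1 h. At 18 h it was 1.64-fold above untreated cells in WT (0.72, adjusted p = 6.9e-07, centred 0.64) and 1.34-fold in KO (0.42, adjusted p = 0.00024, centred 0.51). From 1 h to 18 h it rose by 1.10 in WT (centred 0.23, adjusted p = 0.011) and 0.78 in KO (centred 0.30). The deposited region over Mafg also spanned Sirt7, whose end overlaps 6.58% of the Mafg window, so the Mafg value is the mean density of a region shared by several genes. Its extent differed by time. At 0 h and 18 h it was 18.2 to 21.9 kb long and spanned Pcyt2 in 12 of 12 libraries and Pycr1 in 11, while at 1 h it was 12.1 to 15.8 kb long and spanned Pcyt2 in 0 of 6 and Pycr1 in 2, and the part of this extent in the Mafg changes was not tested.

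Mafk rose at both times and stood highest at 18 h. In WT it held 229.7, 290.1 and 223 tags without LPS, 329, 307 and 338 after 1 h and 540.3, 555 and 582 after 18 h. In KO it held 294, 283 and 276, then 381, 319.9 and 328, then 571, 582 and 595. The times did not overlap, though at 1 h the lowest WT library (307) was close to the highest at 0 h (290.1). At 1 h Mafk was 1.31-fold above untreated cells in WT (0.39 ± 0.09, adjusted p = 0.00088, centred 1.18) and 1.2-fold in KO (0.26, adjusted p = 0.016, centred 0.83), the KO call being lost without KO replicate 1 at 1 h (0.18, adjusted p = 0.098) and over the gene body past the start (0.23, adjusted p = 0.051). At 18 h it was 2.22-fold above in WT (1.15, adjusted p = 5.2e-09, centred 1.08) and 2.01-fold in KO (1.01, adjusted p = 2.6e-08, centred 1.10). The rise from 1 h to 18 h was 0.77 in WT (adjusted p = 5.2e-07) and 0.75 in KO (adjusted p = 8.2e-07). Centred, it was 0.27 in KO and -0.10 in WT (adjusted p = 0.28), so its direction in WT depends on the scaling, and by quantile normalization the WT rise was 0.19 (adjusted p = 0.06), not called. Over 500 bp on each side of the start the KO rise was 0.08 (adjusted p = 0.5) and the WT rise at 1 h 0.22 (adjusted p = 0.053), neither called. Regions covered 77.0%, 72.4% and 98.4% of the Mafk window in WT at 0 h, 1 h and 18 h, and Tmem184a overlaps 5.51% of it.

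**Figure D2:**
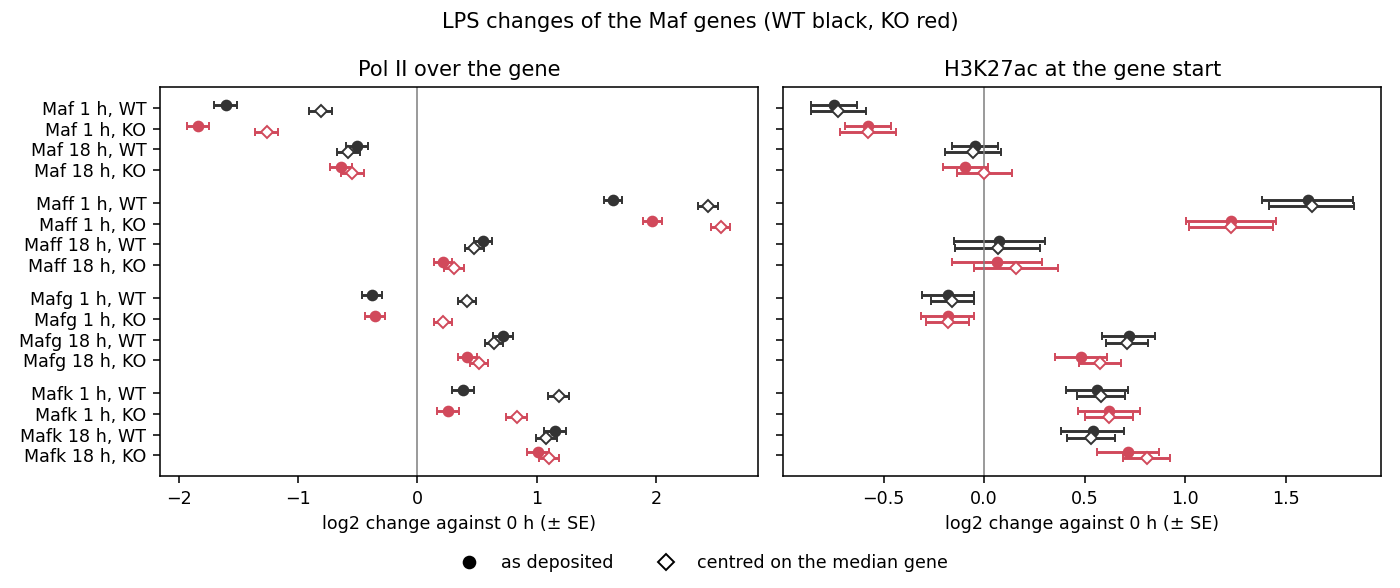
Log2 change of Pol II over each Maf family gene at 1 h and 18 h of LPS against 0 h in WT (black) and KO (red); filled points are values as deposited, open diamonds are centred on the median gene and bars are the SE. Maff has the highest and Maf the lowest change at 1 h on both scales, and only Mafg at 1 h changes direction between them.

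Input libraries put limits on these levels. Over the same windows the 6 inputs held 5.53 to 115 tags for Maf, 0 to 48.8 for Maff, 5.92 to 86.0 for Mafg and 0 to 32.6 for Mafk. The highest of these values was below the lowest Pol II library of the same gene for all 4 members.

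Of the 12 differences in Pol II between KO and WT (4 members at 3 times), 1 was called, that of Maff at 1 h. At 0 h none of the 4 members was called (6.97% of all genes tested were). The differences were 0.09 for Maf (95% interval -0.11 to 0.29), 0.17 for Maff (0.00 to 0.33), 0.09 for Mafg (-0.09 to 0.26) and 0.20 for Mafk (0.01 to 0.40), with adjusted p from 0.23 to 0.67, although the 3 KO libraries of Maff all stood above those of WT. Without WT replicate 2 at 0 h the Mafk difference was called (0.32, adjusted p = 0.028).

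At 1 h Maff alone was called among the 4 (45.8% of all genes tested were called). It was 1.41-fold higher in KO (log2 difference 0.50 ± 0.08, SE, 95% interval 0.33 to 0.66, adjusted p = 0.0001), and the 3 KO libraries all stood above the 3 WT libraries. Since the median gene was also higher in KO at 1 h, by 0.24, the centred difference was 0.25 (adjusted p = 0.026). Over the first start alone (79346621), with 500 bp on each side, the difference was 0.70 (adjusted p = 0.015). This window leaves out the starts at 79347520 and 79348402, which lay under a Pol II region in all libraries. The first start lay under one in 2 of 3 WT and 3 of 3 KO libraries at 1 h. Maf differed by -0.14 (-0.34 to 0.06, adjusted p = 0.24), with all KO libraries below all WT libraries, and was called lower when centred (-0.39, adjusted p = 0.0045). Mafg (0.11, -0.07 to 0.29) and Mafk (0.07, -0.12 to 0.27) did not pass, and their differences were -0.14 and -0.18 when centred. Centring moved the split of all calls at 1 h from 4622 higher and 901 lower to 1885 and 2584.

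At 18 h none of the 4 was called (21.1% of all genes tested were, 971 higher and 1731 lower, or 1968 and 994 when centred). Mafg was at -0.21 (-0.38 to -0.03, adjusted p = 0.086), with all KO libraries below all WT libraries, and centred at -0.07. Maff was at -0.17 (-0.33 to -0.00, adjusted p = 0.14) and was called without KO replicate 1 at 18 h (-0.25, adjusted p = 0.039). Maf (-0.04, -0.24 to 0.16) and Mafk (0.06, -0.14 to 0.25) lay near 0.

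The test of whether the LPS change itself differed between genotypes called Maff at 1 h, 1 of 4 members (18.5% of all genes tested). Its rise was larger in KO by 0.33 (SE 0.11, 95% interval 0.10 to 0.56, adjusted p = 0.047). The call is marginal: centred, the value was 0.11 (adjusted p = 0.58), and it was lost in 14 of 18 fits that left out 1 library (0.29 to 0.36, adjusted p from 0.031 to 0.11). For Maf the difference in change was -0.23 (-0.51 to 0.05, adjusted p = 0.24), and centred it was -0.45 (adjusted p = 0.026), past the threshold. Mafg (0.02) and Mafk (-0.13) were not called. At 18 h no member was called (14.8% of all genes tested), with Maff at -0.33 (-0.57 to -0.10, adjusted p = 0.051), Mafg at -0.30 (-0.55 to -0.05, adjusted p = 0.11), Maf at -0.13 and Mafk at -0.14. The Maff value was called without KO replicate 2 at 0 h (-0.38, adjusted p = 0.042) or KO replicate 1 at 18 h (-0.42, adjusted p = 0.016). All calls of this test split as 1910 higher and 567 lower at 1 h (892 and 1764 centred) and 659 and 1348 at 18 h (1335 and 766 centred).

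**Figure D3:**
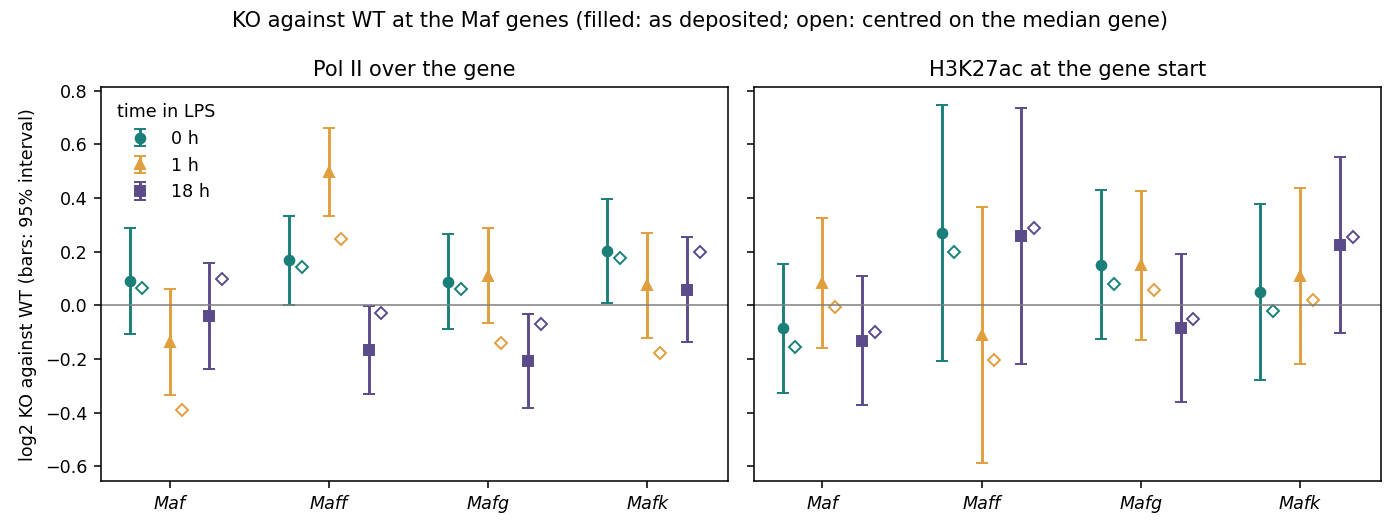
Log2 difference in Pol II between KO and WT over each Maf family gene at 0 h, 1 h and 18 h; filled points are values as deposited with 95% intervals and open diamonds are centred on the median gene. The interval of Maff at 1 h (0.33 to 0.66) lies farthest from 0, and centring moves all 4 genes down at 1 h.

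H3K27ac at the starts moved with Pol II at 1 h for Maff, Mafk and Maf. Against 0 h at 1 h, 2 of 4 members were called higher (Maff, Mafk) and Maf lower in each genotype, while 25.3% of all starts tested were called higher and 29.4% lower in WT, and 20.4% and 26.6% in KO. At 18 h against 0 h, Mafg and Mafk were called higher in each genotype and none lower (23.6% higher and 26.5% lower in WT, 18.4% and 34.2% in KO over all starts). From 1 h to 18 h, Maf and Mafg were called higher and Maff lower in each genotype (29.1% and 28.6% in WT, 17.2% and 27.3% in KO). In KO, centring moved the split of all calls from 2210 higher and 4102 lower to 2783 and 3375 at 18 h against 0 h, and from 2042 and 3235 to 2688 and 2679 at 18 h against 1 h. Without the 2 KO libraries, calls over all starts rose to 70.6% in WT and 62.4% in KO at 1 h against 0 h.

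Maf H3K27ac dipped at 1 h. The start held 926, 925 and 969.5 tags in WT without LPS, 589, 514 and 569 after 1 h and 872, 927 and 931 after 18 h. In KO it held 898, 886 and 873, then 541, 621 and 610.3, then 648, 956 and 919.9, where the first value at 1 h and at 18 h is from a library that stands apart from its replicates. Every library at 1 h lay below every library at 0 h. The change at 1 h was -0.75 ± 0.11 in WT (adjusted p = 4.5e-05) and -0.58 in KO (adjusted p = 0.00065; -0.52 without the 2 libraries). At 18 h H3K27ac was at -0.05 in WT (adjusted p = 0.75) and -0.09 in KO (adjusted p = 0.51; 0.08 without them). By quantile normalization it was called below the untreated level at 18 h (-0.32 in WT, -0.25 in KO), as Pol II was.

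Maff H3K27ac rose at 1 h and was back near its untreated level at 18 h. WT libraries held 94.3, 91.4 and 118 tags without LPS, 398, 287 and 308 after 1 h and 98.1, 111 and 112 after 18 h. KO libraries held 123, 123 and 124, then 387, 291 and 245, then 213, 100.0 and 100.4. The 6 libraries at 1 h lay above all others, and the library labelled KO replicate 1 at 18 h (213) was the highest of the rest. The rise at 1 h was 1.61 ± 0.22 in WT (adjusted p = 2e-05) and 1.23 in KO (adjusted p = 0.00037; 1.06 without the 2 libraries). At 18 h it was 0.08 in WT (adjusted p = 0.8) and 0.06 in KO (adjusted p = 0.83; -0.27 without them). The first Maff start lay under an H3K27ac region in 1, 3 and 0 of 3 WT libraries at 0 h, 1 h and 18 h, and in 3, 3 and 1 of 3 KO libraries.

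Mafg H3K27ac was highest at 18 h. It was 437, 418 and 452 tags in WT without LPS, 353, 433 and 369 after 1 h and 709, 723 and 738 after 18 h. KO libraries held 482, 480.4 and 493, then 329, 506 and 465, then 805, 631 and 623. The times overlapped at 0 h and 1 h in both genotypes, and all 6 libraries at 18 h lay above them. At 1 h the change was -0.18 in both WT (adjusted p = 0.26) and KO (adjusted p = 0.27; -0.00 without the 2 libraries). In the fit without them the WT change, of the same size, was called (adjusted p = 0.021). At 18 h it was 0.72 in WT (adjusted p = 0.00027) and 0.48 in KO (adjusted p = 0.0057; 0.36 without them).

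Mafk H3K27ac rose at 1 h and stayed up. It was 314, 309.9 and 368 tags in WT without LPS, 527, 468 and 480.0 after 1 h and 476, 469 and 506 after 18 h. KO libraries held 334, 359 and 332, then 428, 593 and 589, then 766, 526 and 449.8. Every library with LPS lay above every untreated one. The change at 1 h was 0.56 ± 0.15 in WT (adjusted p = 0.006) and 0.62 in KO (adjusted p = 0.0038; 0.78 without the 2 libraries), and at 18 h it was 0.54 (adjusted p = 0.0085) and 0.71 (adjusted p = 0.0011; 0.50 without them). From 1 h to 18 h it moved by -0.02 in WT (adjusted p = 0.91) and 0.09 in KO (adjusted p = 0.66), the latter being -0.28 (adjusted p = 0.014) without the 2 libraries.

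**Figure D4:**
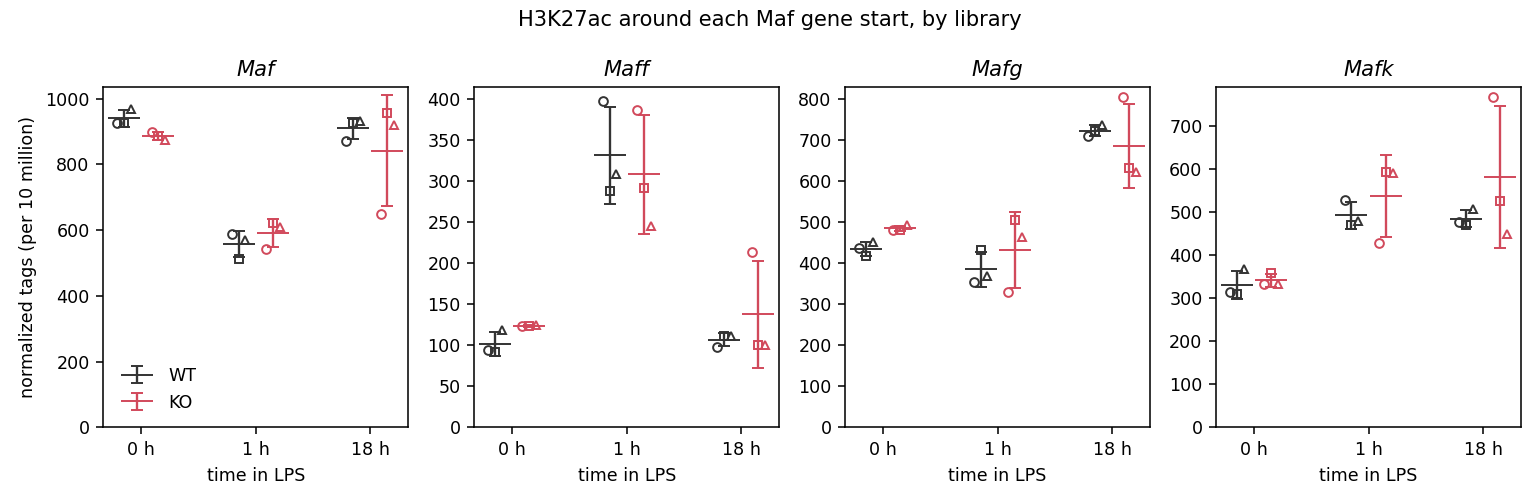
Normalized H3K27ac tags within 2500 bp of the start of each Maf family gene, by genotype and hours of LPS; points are libraries (circle, square and triangle for replicates 1, 2 and 3), lines are means of 3 libraries and bars are the SD. Replicate 1 of KO at 18 h lies apart from its replicates at all 4 genes (for Maff, 213 against 100.0 and 100.4).

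Between genotypes, no member start was called at any time, against 0.771%, 18.5% and 3.25% of all starts at 0 h, 1 h and 18 h. At 0 h the differences, KO against WT, were -0.09 for Maf (95% interval -0.33 to 0.16), 0.27 for Maff (-0.21 to 0.75), 0.15 for Mafg (-0.13 to 0.43) and 0.05 for Mafk (-0.28 to 0.38). The intervals at 1 h were -0.16 to 0.32 for Maf, -0.59 to 0.36 for Maff, -0.13 to 0.43 for Mafg and -0.22 to 0.44 for Mafk, and those at 18 h were -0.37 to 0.11, -0.22 to 0.73, -0.36 to 0.19 and -0.10 to 0.55. These intervals are the precision that 3 libraries per group gave. Without the 2 KO libraries the differences at 18 h were 0.04 for Maf, -0.08 for Maff, -0.20 for Mafg and 0.01 for Mafk, none called, and at 1 h those of Maf (0.14) and Maff (-0.28) were not called. Without the 2 KO libraries, 59.8% of all starts were called at 1 h, among them Mafg (0.33, adjusted p = 0.0011) and Mafk (0.26, adjusted p = 0.013), both higher in KO. The difference between genotypes in the LPS change was called for no member at 1 h or 18 h (0.568% and 0.63% of all starts). Without the 2 libraries, which raised these shares to 47.8% and 14.6%, it was called for Maf (0.23, adjusted p = 0.032) and Maff (-0.55, adjusted p = 0.015) at 1 h and for Mafg (-0.36, adjusted p = 0.025) at 18 h. Centring moved the splits of all calls from 55 higher and 36 lower to 40 and 56 at 0 h, from 1313 and 877 to 1092 and 1323 at 1 h, and from 109 and 263 to 180 and 158 at 18 h, and those of the change from 14 and 55 to 20 and 37 at 1 h and from 20 and 56 to 34 and 25 at 18 h.

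Within 50 kb of the starts lay 35 of the 65215 merged H3K27ac regions, 6 near Maf, 13 near Maff, 10 near Mafg and 6 near Mafk. For 6, 5, 2 and 2 of them the member was the gene with the nearest start. Of the 35 regions, 26 were tested, 13 were called in at least 1 comparison, and 23 overlapped a region in an input library. A region was called when its adjusted p was below 0.05 and its log2 change above 1 in size. At 1 h against 0 h, 4 of 24 were called in WT and 6 of 26 in KO (40.8% and 27.3% of all regions tested). At 18 h against 0 h they were 5 of 22 and 3 of 24 (38.9% and 40.1%), and at 18 h against 1 h 9 of 23 and 6 of 25 (39.5% and 31.0%). These shares were below those over all regions, but at 18 h against 1 h in WT the share (39.1%) was near it. Each rests on only 22 to 26 regions. Of the called regions, 2 in WT and 1 in KO at 1 h against 0 h and 1 in WT at 18 h against 1 h were unlisted in every library of 1 group, and these are given as descriptions. Without the 2 KO libraries the KO counts were 6 of 25, 4 of 24 and 8 of 24, against 29.6%, 43.6% and 43.5% of all regions. Centring moved the split over all regions from 6342 higher and 10988 lower to 8171 and 8152 at 1 h against 0 h in WT, from 6365 and 12230 to 8677 and 8935 at 18 h against 0 h in KO, and from 5441 and 8067 to 7122 and 6141 at 18 h against 1 h in KO.

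The regions over the starts followed the windows above. The one over the Maf start (chr8:115696766-115710344) held 2403, 2456 and 2612 tags in untreated WT cells and 1407, 1350.0 and 1455 at 1 h, a change of -0.82 that was short of the size needed for a call. In KO it went from 2486, 2499.5 and 2353 to 1356, 1092 and 1096 and was called (-1.05 ± 0.17, adjusted p = 0.00012; -1.15 without the 2 libraries). The region over the Maff starts (chr15:79345818-79350567) rose from 97.5, 91.4 and 118 to 478, 412 and 459.6 in WT (2.04 ± 0.24, adjusted p = 2.9e-06). In KO it rose from 123, 123 and 124 to 537, 352 and 359.5 (1.65, adjusted p = 3.9e-05; 1.46 without the 2 libraries). It was again at 98.1, 112 and 112 in WT and 239, 100.0 and 100.4 in KO at 18 h. The region over the Mafg start (chr11:120623602-120634991), which is also that of Sirt7, went from 1011, 1050.2 and 1103 at 1 h to 2164, 2100.4 and 2238 at 18 h in WT (1.03 ± 0.13, adjusted p = 3.8e-06). The region over the Mafk start (chr5:139788698-139796351) was called in no comparison.

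Farther regions near Maf and Maff gave a further set of calls. A region 33.8 kb upstream of Maf (chr8:115741626-115744557), between genes, fell at 18 h. It held 116.5, 100.0 and 117 tags in WT without LPS, 65.9, 89.5 and 63.7 after 1 h and 0, 19.0 and 22.6 after 18 h (18 h against 0 h, -2.51 ± 0.38, adjusted p = 3.6e-05). In KO it held 109, 99.0 and 93.5, then 69.3, 51.1 and 47.8, then 58.2, 20 and 15.9 (-1.55, adjusted p = 0.0023; -1.98 without the 2 libraries). No change of the window at the Maf start was called at that time. Downstream in Maff, a region over its exons (chr15:79352663-79359298) went from 109.9, 106 and 103 at 0 h to 192, 221 and 202 at 1 h and 64.2, 56.6 and 74.9 at 18 h in WT (18 h against 1 h, -1.52 ± 0.12, adjusted p = 5.9e-08). The KO libraries went from 114, 113 and 119 to 245, 186 and 184 and to 54.7, 64.5 and 57.8 (-1.63, adjusted p = 3.5e-08; -1.46 without the 2 libraries). A low region 12.1 kb upstream of Maff (chr15:79332612-79334504), between genes and nearest to Pla2g6, held 9.27, 0 and 10.5 tags in WT at 0 h and 35.2, 38.6 and 29.5 at 18 h (1.49, adjusted p = 0.00074). The KO libraries went from 11.4, 9.34 and 8.11 to 37.4, 25.1 and 24.2, short of the size needed (0.97, adjusted p = 0.013; 0.82 without the 2 libraries). Regions in Pla2g6, 21.4 kb upstream (chr15:79321957-79325185), and in an intron of Tmem184b, 40.4 kb downstream (chr15:79386991-79392792), fell. The first was called at 1 h in KO (-1.13, adjusted p = 2.4e-05; -1.35 without the 2 libraries) and fell in WT by less than the size needed (-0.60, adjusted p = 0.0035). The second was called at 18 h against 0 h in WT (-1.39, adjusted p = 0.0021), and in KO only without the 2 libraries (-0.75, adjusted p = 0.062; -1.26 and 0.00029 without them).

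Near Mafg, a region 2.1 kb upstream in exons of Pycr1 (chr11:120635697-120640062), for which Mafg has the nearest start, was seen at 1 h. It was listed at 0 in all 6 untreated libraries and held 41.1, 56.7 and 44.1 tags in WT and 49.3, 49.5 and 34.1 in KO at 1 h, so listed values stand against unlisted ones and no p is given. At 18 h it held 0, 8.13 and 0 in WT and 11.9, 7.35 and 5.24 in KO. It thus appeared while H3K27ac at the Mafg start did not rise. The regions near Mafk that were called lie 47.1 kb upstream (chr5:139741899-139744433, nearest to Micall2) and 38.8 kb downstream (chr5:139830328-139832846, nearest to Psmg3). The first fell at 18 h against 0 h in WT (-1.92, adjusted p = 8.3e-05) and KO (-1.53, adjusted p = 0.0006; -1.28 without the 2 libraries). The second was listed at 0 in all WT libraries at 1 h, from 39.7, 29.2 and 22.7 at 0 h. In KO it was also called lower at 1 h, from 28.0, 30.1 and 30.6 to 0, 9.76 and 11 (-1.30, adjusted p = 0.00069), and the call was lost without the 2 libraries (-0.96).

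**Figure D5:**
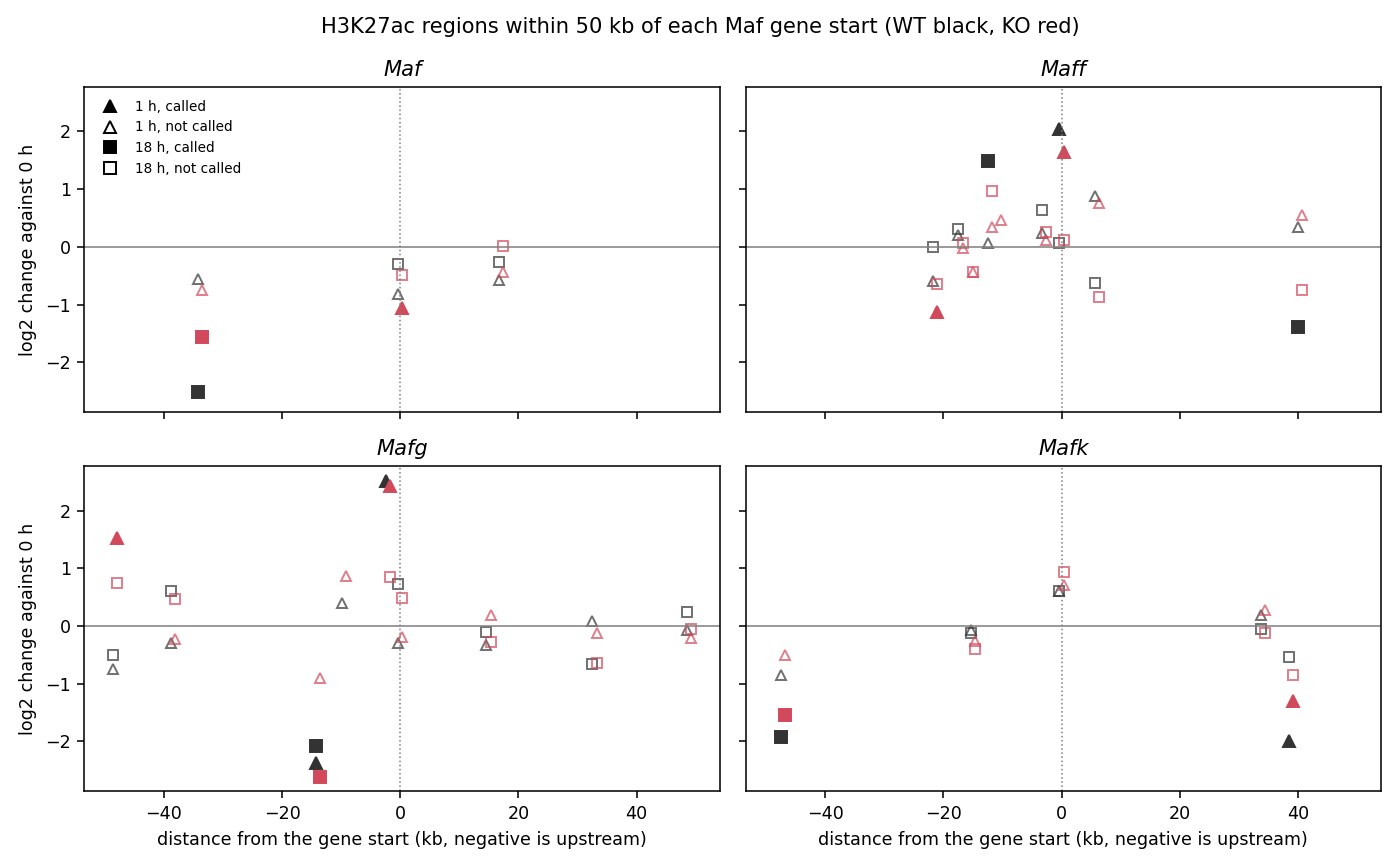
Log2 change of each tested H3K27ac region against 0 h by its distance from the start of the Maf family gene in kb (triangles 1 h, squares 18 h, WT black, KO red, filled where called, points slightly offset). Changes of regions listed at 0 in a group are fitted with a pseudocount of 10 and are not folds; for Maff the filled triangles at the start are the rise at 1 h (2.04 in WT, 1.65 in KO).

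Between KO and WT, 0 of 23 regions were called at 0 h, 2 of 25 at 1 h and 0 of 23 at 18 h (1.85%, 14.1% and 3.74% of all regions tested), and the LPS change differed for 1 of 26 at 1 h and 0 of 24 at 18 h (3.1% and 1.6%). Without the 2 KO libraries the counts were 0, 3 and 0, and 3 and 0, while the shares over all regions were 2.39%, 29.2% and 4.78%, and 24.9% and 3.65%. A region near Mafk (chr5:139830328-139832846) was among those added at 1 h in both, where KO held 9.76 and 11 tags and all WT libraries were listed at 0, so it is no test of a measured difference. Both regions called at 1 h with all libraries are in the neighbourhood of Mafg and nearest to other genes. At the start of Myadml2, 13.9 kb upstream of Mafg (chr11:120647530-120650292), KO libraries held 10.9, 68.3 and 63.4 tags at 1 h against 10.0, 0 and 10.3 in WT (1.63 ± 0.54, adjusted p = 0.033; 2.25 without the 2 libraries), and the library labelled KO replicate 1, 10.9, lay at the WT level. The call was lost without KO replicate 2 or 3 or without any 1 of the WT libraries at 1 h (1.29 to 1.80, adjusted p from 0.051 to 0.15), by quantile normalization (1.49, adjusted p = 0.054), with a pseudocount of 1 (2.91, adjusted p = 0.11) and with a common density floor (1.61, adjusted p = 0.059). At 0 h the Myadml2 region held 73.5, 67.2 and 76.7 tags in WT and 86.1, 77.2 and 81.8 in KO. Its fall at 1 h was called in WT (-2.37, adjusted p = 0.0013) and not in KO (-0.89, adjusted p = 0.17). At 18 h it was called lower than at 0 h in both (-2.09 in WT, -2.61 in KO, the latter -3.20 without the 2 libraries). The difference in its LPS change at 1 h was not called (1.48, adjusted p = 0.22), but was without the 2 libraries (2.09). In an intron of Aspscr1, 48.2 kb upstream of Mafg (chr11:120681825-120684099), KO libraries held 29.4, 29.3 and 30.1 tags at 1 h and all WT libraries were listed at 0. The region entered this comparison only through KO, so its call is no test of a measured difference. At 0 h the WT libraries held 0, 14 and 9.35 tags. The call of its LPS change between genotypes also rests on the unlisted WT libraries at 1 h and is no such test either. A window had to hold 13.4 to 16.3 normalized tags per kb to be listed in the WT libraries at 1 h and 10.1 to 12.7 in those of KO. With one floor of 16.3 for all libraries, the 3 KO libraries kept the region. Centring moved the split over all regions from 3933 higher and 1806 lower to 2491 and 2825 for KO against WT at 1 h, and from 834 and 647 to 713 and 975 and from 399 and 360 to 506 and 231 for the difference in change at 1 h and 18 h.

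The partners of the small Maf proteins moved in both directions. Of 7 genes of this list, 6 partners and Keap1, which holds the partner Nrf2 in check and is no dimer partner itself, Pol II was called higher for 1 and lower for 3 at 1 h in WT (median log2 change -0.03, against -0.82 over all genes) and 1 and 4 in KO (-0.19, against -0.62), while 18.6% of all genes were called higher and 68.5% lower in WT and 20.6% and 62.2% in KO. Centred, 5 were called higher and 1 lower in each genotype (all genes, 4914 higher and 5048 lower in WT, 4817 and 5084 in KO). At 18 h against 0 h 3 were called higher and 2 lower in each genotype, near the shares of all genes (33.3% and 33.3% in WT, 28.1% and 42.2% in KO). Nfe2l2, which encodes Nrf2, was called in neither genotype at that time. Keap1 rose 1.42 in WT and 1.74 in KO at 18 h, and Nfe2l1 rose 0.60 and 0.78, while Nfe2 fell by 0.74 and 0.94. Bach2, a repressor that pairs with small Maf proteins, was the partner that differed most between genotypes. It held 356, 398 and 409 tags in WT and 400, 404 and 355 in KO at 0 h, and 32.1, 26.3 and 48.0 in WT against 105, 153 and 124 in KO at 1 h. It fell at 1 h in both (WT -3.16, KO -1.54), with a difference of 1.61 (SE 0.21, adjusted p = 6.3e-05, centred 1.39). Of the 7 genes of the list, 0 were called between genotypes at 0 h, 3 at 1 h (Bach2 1.61, Bach1 0.35 and Keap1 -0.50) and 2 at 18 h (Keap1 0.26 and Bach1 -0.23), against 6.97%, 45.8% and 21.1% of all genes. The Bach1 differences were not called when centred (0.10 and -0.10).

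Genes under antioxidant response elements, which these dimers bind, rose at 18 h. Of 12, Pol II was called higher for 10 and lower for none at 18 h against 0 h in each genotype, with a median change of 1.19 in WT and 0.88 in KO against -0.00 and -0.18 over all genes, of which 33.3% and 28.1% were called higher. H3K27ac at their starts was called higher for 10 of 11 tested in each genotype at that time (23.6% and 18.4% of all starts; medians 1.02 and 0.94). Without the 2 libraries, 10 of 11 were called higher in KO (median 0.95), and 68.2% of all starts were called in either direction in that fit. Gclm, a subunit of the glutathione-synthesis enzyme glutamate-cysteine ligase, rose by 3.08 in WT and 3.82 in KO, and Gsr, glutathione reductase, by 2.53 and 2.34. At 1 h 3 were called higher and 9 lower in each genotype (centred 5 and 6 in WT, 3 and 6 in KO), near the shares of all genes (18.6% and 68.5% in WT, 20.6% and 62.2% in KO). Hmox1, heme oxygenase 1, fell at 1 h (WT -3.42, KO -3.36), whereas Slc7a11, the cystine transporter subunit, rose (3.21 and 3.43). Between genotypes, 2 were called higher in KO and 1 lower at 0 h, 4 and 1 of 11 tested at 1 h (centred 3 and 3), and 1 and 2 at 18 h (centred 2 and 0), against 6.97%, 45.8% and 21.1% of all genes called in either direction, so the share at 1 h was near that of all genes. Slc7a11 was higher in KO at 0 h, 1 h and 18 h (0.35, 0.57 and 1.19), and Gclm was lower at 0 h and 1 h (-0.94 and -0.44).

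Genes linked to c-Maf in macrophages were mixed. Of 7, Pol II was called higher for 2 and lower for 3 at 1 h in WT and for 3 and 3 in KO (centred 5 and 1 in each), against 18.6% higher and 68.5% lower of all genes in WT and 20.6% and 62.2% in KO, and at 18 h against 0 h for 1 and 4 of 6 tested in WT and 2 and 4 of 6 in KO, against 33.3% higher and 33.3% lower of all genes in WT and 28.1% and 42.2% in KO. Il10, an anti-inflammatory cytokine, held 89.6, 102 and 84.7 tags in WT and 39.8, 58.7 and 38.5 in KO at 0 h, a difference of -0.89 (adjusted p = 0.0002), with no overlap. At 1 h, while Maf was at its lowest, Il10 rose by 1.36 in WT and 2.04 in KO, and KO and WT were not called apart. Il12b, a subunit of interleukin 12, held a mean of 4212 ± 110 tags (SD, n = 3) in WT and 2303 ± 261 in KO at 1 h (-0.87, adjusted p = 3.5e-06). Mrc1, the mannose receptor, fell at 18 h (WT -5.56, KO -6.05) and was higher in KO at 1 h (0.92) and lower at 18 h (-0.66). Between genotypes, 0 genes of this list were called higher in KO and 1 lower of 6 tested at 0 h. The counts were 1 and 1 of 7 at 1 h and 1 and 4 of 6 at 18 h. Of all genes, 6.97%, 45.8% and 21.1% were called in either direction. Centred, the counts of the list were 0 and 2, 1 and 4, and 1 and 2. C1qa, C1qb and C1qc lie side by side under one region at 0 h and 1 h and are not separate measurements there.

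The genes whose Pol II pattern was most like that of each member, over the 18 Pol II libraries and given as a description with no test, were Myo7a (Pearson r = 0.993), Dnmt3a (0.988) and Lamtor4 (0.988) for Maf, Akap13 (0.988), Mylip (0.986) and Dennd5a (0.986) for Maff, Vps28 (0.983), Chek2 (0.981) and Gatd1 (0.980) for Mafg, and Cebpb (0.977), Nr1h3 (0.977) and Perm1 (0.977) for Mafk. The 18 points share 6 groups and the shift of the median gene at 1 h, so the values mostly describe likeness over the 6 group means. The macrophage marker list summed to 1290 to 1396 tags per kb in WT at 0 h, 784 to 884 at 1 h and 857 to 984 at 18 h. Of its 7 genes, 2 were called higher and 4 lower at 1 h in WT (median -0.45, against -0.82 over all genes) and 2 and 5 in KO (median -1.60, against -0.62), with 18.6% of all genes higher and 68.5% lower in WT and 20.6% and 62.2% in KO. Between genotypes, the count called was 1 (higher in KO) at 0 h, 4 (1 higher, 3 lower) at 1 h and 5 (1 higher, 4 lower) at 18 h, against 6.97%, 45.8% and 21.1% of all genes, which at 1 h were 4622 higher and 901 lower. The dendritic cell list rose in sum from 20.9 to 27.6 tags per kb in WT at 0 h to 106 to 126 at 1 h, and from 23.8 to 26.3 to 104 to 117 in KO, but of its 3 genes 1 was called higher and 1 lower at 1 h in each genotype (medians -0.01 and -0.33; the same shares of all genes apply), and Flt3 was at 0 in WT at 1 h. The part of cell composition in these changes was not tested, and in bulk chromatin fewer cells of a type cannot be told apart from less Pol II per cell.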

How the data were processed

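Pol II and H3K27ac libraries (18 each) and 6 inputs were used. The deposited files list, per library, enriched regions with a signal, the normalized tag count, which the authors scaled to 10 M tags. The authors trimmed reads, aligned them to mm10 and removed duplicates; the submitters' processing notes name HISAT2 2.1.0 and HOMER. Per the file headers, windows of 500 bp at a Poisson p of 0.001 were stitched over 1000 bp, with no input. Here, region tags were shared out by length of overlap with each window (GENCODE vM21), and a window without a region was set to 0. Such values are not counts, so limma 3.58.1 (R 4.3.3, intensity trend) was fitted to log2(tags + 10) with 6 group means per antibody and 18 libraries. A gene or region was tested when 2 or more of the 3 libraries of a compared group listed it, with Benjamini-Hochberg adjustment over all tested; genes were called at an adjusted p of 0.05, regions also at a log2 change of 1. Centred values subtract each library's median. Quantile normalization, a pseudocount of 1, filters, narrower windows, a floor, a replicate block and leaving out each library were tried. Symbols shared by 54 genes were left out. Every member, up to 4 called genes of each list per comparison with the largest change, the 3 genes most alike each member and regions over starts or called are named. Members and lists were chosen with earlier results of these data known. A 0 means that no region was listed, not that no tag was present. Tables were computed with Python 3.11.15, pandas 2.3.3 and numpy 2.4.6, and figures with matplotlib 3.10.9.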

Additional observations from a re-analysis of the deposited data

Results flagged for a closer look

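The LPS change of Pol II over Maff at 1 h differed between genotypes by the test of that difference. It was larger in KO by 0.33 (log2, SE 0.11, limma with Benjamini-Hochberg adjustment, adjusted p = 0.047), all 3 KO libraries at 1 h standing above all 3 WT libraries. Centred on the median gene it was 0.11 (adjusted p = 0.58).

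The H3K27ac region in an intron of Aspscr1, 48.2 kb upstream of Mafg, was picked out by the same comparison, with a fitted difference in its change at 1 h of 2.26 (log2). WT libraries held 0, 14 and 9.35 tags at 0 h and were all listed at 0 at 1 h. The value therefore rests on unlisted libraries and depends on the pseudocount, and it is neither a fold nor a test of a measured difference.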

How the results depend on the processing

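Of 108 results, 33 counts and 75 log2 changes, 38 log2 changes kept direction and side of the threshold under every alternative run, and 21 turned direction under at least 1, of which 4 had been called. Where a cause is not named it was not tested.

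Called Pol II changes that turned were Mafg at 1 h when centred (0.42 in WT, 0.22 in KO), Mafk from 1 h to 18 h in WT when centred (-0.10) and Maff at 18 h against 0 h in KO over the 500 bp around the start (-0.23). The Maff window is at its first start, over which no Pol II region lay at 0 h or 18 h. Uncalled KO against WT differences in Pol II turned for Maf (-0.034 at 0 h by quantile normalization, 0.031 at 1 h and 0.040 at 18 h at the start, 0.10 at 18 h centred), Mafg at 1 h (-0.14 centred, -0.056 quantile) and Mafk (-0.18 centred and -0.11 quantile at 1 h, -0.038 at 18 h at the start). In H3K27ac they turned for Maf (-0.0077 at 1 h centred), Mafg (0.026 at 18 h quantile) and Mafk (-0.022 centred and -0.028 quantile at 0 h), as did the 18 h change of Maf in KO centred (0.00034), those of Maff within 1000 bp (-0.29 in WT, -0.32 in KO) and Mafk from 1 h to 18 h in WT within 1000 bp (0.030).

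Counts of called members in Pol II moved to 2 for KO against WT at 1 h centred, to 2 at the start for 18 h against 0 h in WT and for 18 h against 1 h in KO, to 0 for the difference in change at 1 h (quantile, floor, replicate block, no intensity trend, start and gene body) and to 1 at 18 h (pseudocount 1, no filter). The replicate numbers share only a number: deviations of same-numbered libraries correlated at -0.08 to 0.11 for Pol II and -0.42 to 0.08 for H3K27ac, and the replicate block left the Maff difference in change at 0.33 (adjusted p = 0.061).

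Counts of called regions moved as follows. With regions found in every library, they were 0 for KO against WT at 1 h, 1, 1 and 4 for the WT comparisons (1 h and 18 h against 0 h, 18 h against 1 h), 3 and 1 for 1 h and 18 h against 0 h in KO, and 0 for the difference in change at 1 h. Within 20 kb, which holds fewer regions, they were 1 for KO against WT at 1 h, 2 and 5 for WT at 18 h (against 0 h, against 1 h), 3 and 1 for KO against 0 h, and 0 for the difference in change. For 18 h against 0 h in KO they were 7 centred, 5 by quantile and 5 with a floor. KO against WT gave 1 at 1 h by quantile or floor and 1 at 18 h centred, and pseudocount 1 gave 0 for the difference in change at 1 h.

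Leaving out each library in turn, or the 2 KO H3K27ac libraries together, gave ranges of 0 to 1 called members in Pol II for KO against WT at 0 h and 18 h and for the difference in change at both times, 0 to 2 in H3K27ac for KO against WT and for the difference in change at 1 h and 0 to 1 for the latter at 18 h, and for regions 3 to 6 at 18 h against 0 h in KO, 0 to 1, 1 to 3 and 0 to 1 for KO against WT, and 0 to 3 for the difference in change at 1 h. Log2 values that turned ranged from -0.10 to 0.067 (Maf Pol II, KO against WT at 18 h), -0.0014 to 0.12 (Mafk Pol II at 1 h), and in H3K27ac from -0.20 to 0.082 and -0.27 to 0.24 (Maf and Maff, 18 h against 0 h in KO), -0.23 to 0.044 (Maf, KO against WT at 18 h), -0.28 to 0.034 and -0.082 to 0.43 (Maff at 1 h and 18 h), and -0.055 to 0.028 and -0.28 to 0.25 (Mafk from 1 h to 18 h in WT and KO). The 2 and the 1 in H3K27ac counts and the -0.28 of Mafk came from leaving out both libraries, single libraries giving 0 to 1 for KO against WT, 0 for the difference in change, and -0.12 for Mafk.

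The fit without the 2 KO H3K27ac libraries was chosen after seeing the data. Depth differed between genotypes in H3K27ac, and regions too weak to be listed hold no value.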
